A study of Mus musculus with 5 samples.

Results

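The interferon-high macrophages of the aortic arch were a set of cells chosen by their transcripts, and they numbered 286 of the 18260 cells in the table. A cell was first taken as a macrophage where C1qa and C1qb, which encode chains of complement C1q, were both above 2 on the deposited natural log scale, ln(1 + CP10K), in which CP10K counts the unique molecular identifiers (UMIs) of a gene for every 10000 in its cell, and where Csf1r or Adgre1 had a UMI; 2510 cells passed. Of these, 105 had UMIs of at least 3 of the 5 cell cycle genes Mki67, Top2a, Birc5, Ube2c and Cenpf and were left out, 18 of which also met the interferon condition. A macrophage was called interferon-high where at least 2 of the 4 genes Rsad2, Cxcl10, Cxcl9 and Ifit1 had a UMI, so the values of these genes chose the cells and are given below only as a description. The remaining 2119 macrophages that met the same first condition served as the comparison.

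The cells came from 5 libraries of mouse aortic arch prepared with droplet 3′ chemistry from live cells sorted by DAPI, after 28 weeks on normal chow. There were 2 libraries from Apoe-/- mice, which carry intact Oasl1 and are prone to atherosclerosis through loss of apolipoprotein E, and 3 labelled Oasl1-/-Apoe-/-, in which by the label the interferon-induced gene Oasl1 was deleted as well, in all cells. The sample titles read Oasl1/Apoe WT and Oasl1/Apoe DKO, and the genotype names are those of the paper. A label here means such a title read with the paper's name. By the paper both groups lacked Apoe and both were atherosclerotic. Each cell suspension pooled mice (6 are stated, without saying whether per library or per group), so no value belongs to 1 animal, and p-values measure only the spread between libraries. Library totals ranged from 16959976 to 19813039 UMIs. Oasl1 itself averaged 0.0145 and 0.00854 CP10K over all cells of the Apoe-/- libraries and 0.169, 0.163 and 0.198 in the libraries labelled Oasl1-/-Apoe-/-, which goes against the label. The paper describes a deletion of the promoter region and exon 2. Where the counted 3′ tags of Oasl1 lie was not mapped. The cause of the higher values was not tested, and the genotypes of both groups are taken from the titles and the paper. In the interferon-high macrophages Oasl1 was at 1.67, 1.48 and 1.37 CP10K in the libraries labelled Oasl1-/-Apoe-/- and at 0.948 and 0.165 in the Apoe-/- libraries.

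Type I interferons bind the receptor pair IFNAR1 and IFNAR2, which signal through JAK1 and TYK2 to a complex with STAT2 and IRF9 that binds the interferon-stimulated response element (ISRE) in front of antiviral genes such as Rsad2, Ifit1, Isg15 and Mx1. Interferon gamma, made mainly by T and NK cells, acts through its own receptor and is best known for inducing Cxcl9, guanylate-binding proteins and MHC class II genes. Macrophages with an interferon response are a known state in atherosclerotic plaques, beside lipid-laden foam cells marked by Gpnmb, Spp1 and Trem2, inflammatory macrophages with Il1b, and tissue-resident macrophages.

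The sequences just upstream of the 4 condition genes are shown because the choice of cells rests on these genes. That of Isg15, a ubiquitin-like antiviral gene outside the condition, is shown beside them. It was picked with its strongly higher value in these cells known. Each sequence is the 250 bases before the annotated start, written 5′ to 3′ on the strand of the gene, from RefSeq on GRCm38.p6. Gene spans given elsewhere are from GENCODE M21, whose start of Ifit1 differs from that of RefSeq, so its stretch here runs slightly into the GENCODE span. Capitals mark the ISRE core, GAAA, any 2 bases and GAAA, or on the other strand TTTC, any 2 bases and TTTC.
Rsad2, chr12:26456453-26456702, minus strand: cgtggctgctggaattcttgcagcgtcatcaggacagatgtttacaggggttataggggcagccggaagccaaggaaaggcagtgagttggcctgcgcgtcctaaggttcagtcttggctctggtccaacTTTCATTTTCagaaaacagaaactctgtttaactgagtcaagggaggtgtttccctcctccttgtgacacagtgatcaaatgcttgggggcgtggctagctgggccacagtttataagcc
Ifit1, chr19:34640639-34640888, plus strand: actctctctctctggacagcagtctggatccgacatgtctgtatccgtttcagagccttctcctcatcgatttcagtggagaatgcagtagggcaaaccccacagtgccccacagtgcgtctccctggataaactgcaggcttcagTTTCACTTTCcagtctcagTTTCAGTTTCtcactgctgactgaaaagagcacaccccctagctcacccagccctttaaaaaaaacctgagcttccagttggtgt
Isg15, chr4:156200819-156201068, minus strand: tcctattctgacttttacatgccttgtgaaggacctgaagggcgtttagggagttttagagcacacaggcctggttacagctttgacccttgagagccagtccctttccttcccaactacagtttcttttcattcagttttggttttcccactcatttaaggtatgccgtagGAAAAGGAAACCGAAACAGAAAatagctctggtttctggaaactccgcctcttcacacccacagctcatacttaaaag
Cxcl10, chr5:92348890-92349139, minus strand: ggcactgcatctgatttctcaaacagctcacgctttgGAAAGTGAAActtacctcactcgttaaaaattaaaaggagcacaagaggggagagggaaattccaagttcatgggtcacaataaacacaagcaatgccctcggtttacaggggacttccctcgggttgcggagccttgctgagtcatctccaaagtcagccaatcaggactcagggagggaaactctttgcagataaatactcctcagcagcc
Cxcl9, chr5:92328080-92328329, minus strand: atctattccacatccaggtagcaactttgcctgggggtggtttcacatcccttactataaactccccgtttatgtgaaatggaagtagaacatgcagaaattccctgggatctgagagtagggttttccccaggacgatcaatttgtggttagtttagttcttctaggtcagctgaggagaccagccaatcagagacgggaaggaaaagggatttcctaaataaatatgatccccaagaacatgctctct
Rsad2 held 1 match, which began 120 bases before the start, Ifit1 held 2, at -104 and -85, and Cxcl10 held 1, at -213. Isg15 held 3 overlapping matches at -78, -72 and -66 that merge into 1 run. The window of Cxcl9 held none, which says only that these letters are not in it. Of the windows searched but not shown, those of Ccl12 and Ifnb1 held none, that of Fcgr4 held 1 and that of Ifit3 held 2. The same letters occurred in 821 of 27025 promoters of this length (3.04%). Rsad2, the radical enzyme viperin, spans chr12:26442746-26456452, and Ifit1, which binds foreign RNA caps, spans chr19:34640871-34650009. Cxcl10 at chr5:92346638-92348889 and Cxcl9 at chr5:92321347-92328079 are neighbouring chemokine genes whose products attract CXCR3-bearing T cells.

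The label was checked against markers. The interferon-high macrophages of the libraries labelled Oasl1-/-Apoe-/- had C1qa at 73.1, 74.5 and 72.0 CP10K, and all 9 macrophage markers of the list, some of them genes of the condition, were detected in every library, with a sum of 246.8, 252.3 and 252.6 CP10K against 256.7, 254.8 and 248.1 in the other macrophages. T and NK cell markers summed to 0.00885, 0.0154 and 0.0158 CP10K, with 6 of 7 listed at 0 in each library, against 0.102, 0.141 and 0.0402 in the other macrophages. Markers of classical monocytes summed to 2.55, 2.61 and 1.17 CP10K against 1.54, 1.52 and 2.08, so that replicate 3 stood on the other side of its comparison. Dendritic cell markers were low but higher in each library, at 0.137, 0.352 and 0.250 CP10K against 0.111, 0.102 and 0.0981, with Siglech, which marks plasmacytoid cells, listed at 0. Smooth muscle markers summed to 6.89, 9.65 and 10.9 CP10K against 8.21, 5.30 and 6.68. As an alternative, cells with at least 2 UMIs over the T and NK, B, neutrophil, smooth muscle, fibroblast and endothelial markers together were left out. This removed 142 of the 258 cells of these libraries. The part of smooth muscle RNA alone was not measured. In replicate 1, red blood cell genes stood apart at 35.2 CP10K, against 0.427 and 0.395 in the other replicates. The other macrophages of Apoe-/- replicate 2 had a like sum of 33.4 CP10K. Fibroblast markers summed to 0.752, 3.78 and 0.4995 CP10K against 1.125, 2.50 and 1.14 in the other macrophages, higher only in replicate 2. No cell barcode was shared between libraries among the interferon-high macrophages, although 6 to 22 were shared between any pair of libraries over all cells.

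Interferon-high macrophages were found in all 5 libraries and took a larger share of macrophages in the libraries labelled Oasl1-/-Apoe-/-. They numbered 14 and 14 in the Apoe-/- libraries and 79, 73 and 106 in the others, which makes 258 of 286 cells (90.2%). As a share of non-cycling macrophages they made up 4.50% (Wilson 95% interval 2.70 to 7.41) and 4.52% (2.71 to 7.44) in the Apoe-/- libraries. The libraries labelled Oasl1-/-Apoe-/- had 12.9% (10.5 to 15.8), 12.8% (10.3 to 15.8) and 17.6% (14.8 to 20.8). The groups did not overlap, with means of 4.51% ± 0.0103 (SD, n = 2) and 14.4% ± 2.72 (SD, n = 3). The condition genes themselves define this share, so the difference is given with no test. The other macrophages had a median depth of 6199 and 5495 UMIs in the Apoe-/- group, beside 5498, 5529 and 5818 in the rest. With each cell thinned to 2000 UMIs the shares were 2.74% and 3.19% against 5.63%, 5.99% and 8.14%, and with at least 3 of the 4 genes they were 1.93% and 0.968% against 4.41%, 5.45% and 5.31%. The order of the groups was the same under both. These intervals cover counting error only.

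**Figure D1:**
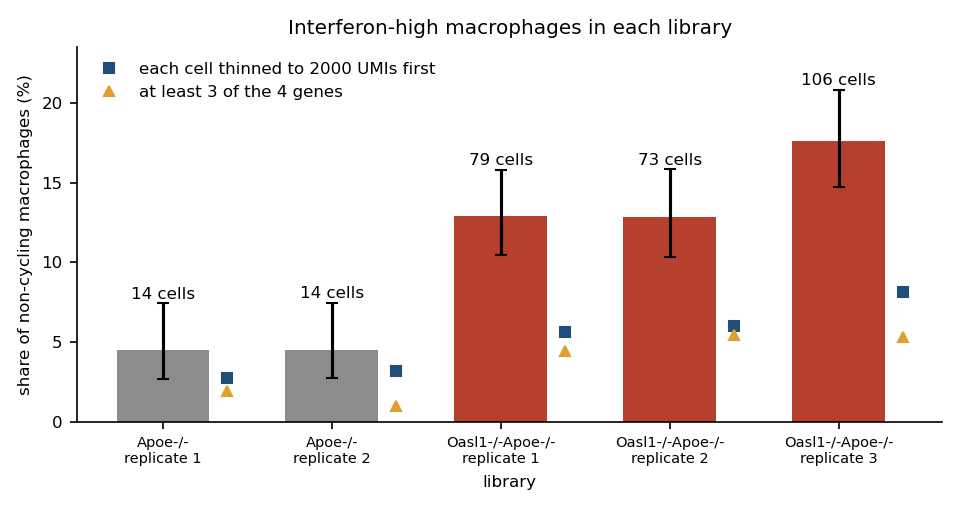
Share of non-cycling macrophages that were interferon-high, in percent, for each of the 5 libraries. Bars give the share with its Wilson 95% interval, squares the share after thinning each cell to 2000 UMIs and triangles the share with at least 3 of the 4 genes. All 3 libraries labelled Oasl1-/-Apoe-/- lie above both Apoe-/- libraries in each measure.

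Rsad2 was the condition gene most often present, with a UMI in 229 of the 286 cells, followed by Cxcl10 in 207, Ifit1 in 161 and Cxcl9 in 85. Exactly 2 of the genes were seen in 187 cells, 3 in 88 and all 4 in 11. The most frequent combinations were Rsad2 with Cxcl10 (62 cells), Rsad2 with Cxcl10 and Ifit1 (62 cells) and Rsad2 with Ifit1 (56 cells). Cxcl9 was most often paired with Cxcl10 alone (27 cells) and least often with Rsad2 and Ifit1 (2 cells).

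By level, Cxcl10 was the highest of the 4, at 13.2, 7.48 and 8.77 CP10K in the libraries labelled Oasl1-/-Apoe-/- and at 22.7 and 21.8 in the Apoe-/- libraries. Rsad2 was at 5.45, 5.94 and 4.81 CP10K and at 4.08 and 5.53. Ifit1 was at 3.65, 1.82 and 2.51 CP10K and at 9.38 and 2.19, and Cxcl9 at 2.07, 2.27 and 3.41 and at 4.18 and 4.17. Mean Cxcl10 was thus higher in the 28 cells of the Apoe-/- libraries than in the 258 others, without overlap of libraries. Each Apoe-/- mean rests on only 14 cells chosen in part by this gene. The shares of cells with Cxcl10 overlapped, at 13 and 10 of 14 against 57 of 79, 55 of 73 and 72 of 106. Rsad2 and Ifit1 overlapped in level. The Cxcl9 means of the Apoe-/- libraries rest on 19 UMIs in 2 cells and 19 UMIs in 3 cells, and the share of cells with Cxcl9 ran the other way, at 14.3% and 21.4% against 27.9%, 31.5% and 33.0%, so no direction is read for it. The chemokine gene Ccl12 and the activating Fc receptor gene Fcgr4, named as markers of these cells with earlier results in view, were at 17.8, 10.8 and 14.0 and at 5.03, 5.74 and 6.35 CP10K, against 3.35, 3.66 and 4.40 and 3.07, 2.61 and 2.98 in the other macrophages of the same libraries.

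The threshold cut a graded distribution. In the libraries labelled Oasl1-/-Apoe-/-, 1131 macrophages had none of the 4 genes, 395 had 1, 168 had 2, 79 had 3 and 11 had 4. The summed level of 47 type I interferon effector genes, none of them a condition gene, was 60.1, 59.8 and 59.0 CP10K with none of the 4 genes and 82.4, 81.3 and 84.0 with 1, just outside the threshold. Just inside it, with 2 genes, the sum was 113, 125 and 115 CP10K, and with 3 it was 157, 146 and 173. Isg15, whose product ISG15 is a ubiquitin-like modifier, went from 1.14, 1.43 and 1.30 CP10K through 3.91, 3.02 and 3.17 and 8.44, 8.58 and 7.91 to 13.2, 15.1 and 13.2. Median depth in the same classes was 5219, 5332.5 and 5543.5 UMIs with none, 6055.5, 5952 and 6230 with 1, and 6161.5, 6355.5 and 6433 with 2, so the classes inside the threshold were also deeper. A cell with 1 gene therefore stood between the classes, and the other macrophages held 395 such cells.

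**Figure D2:**
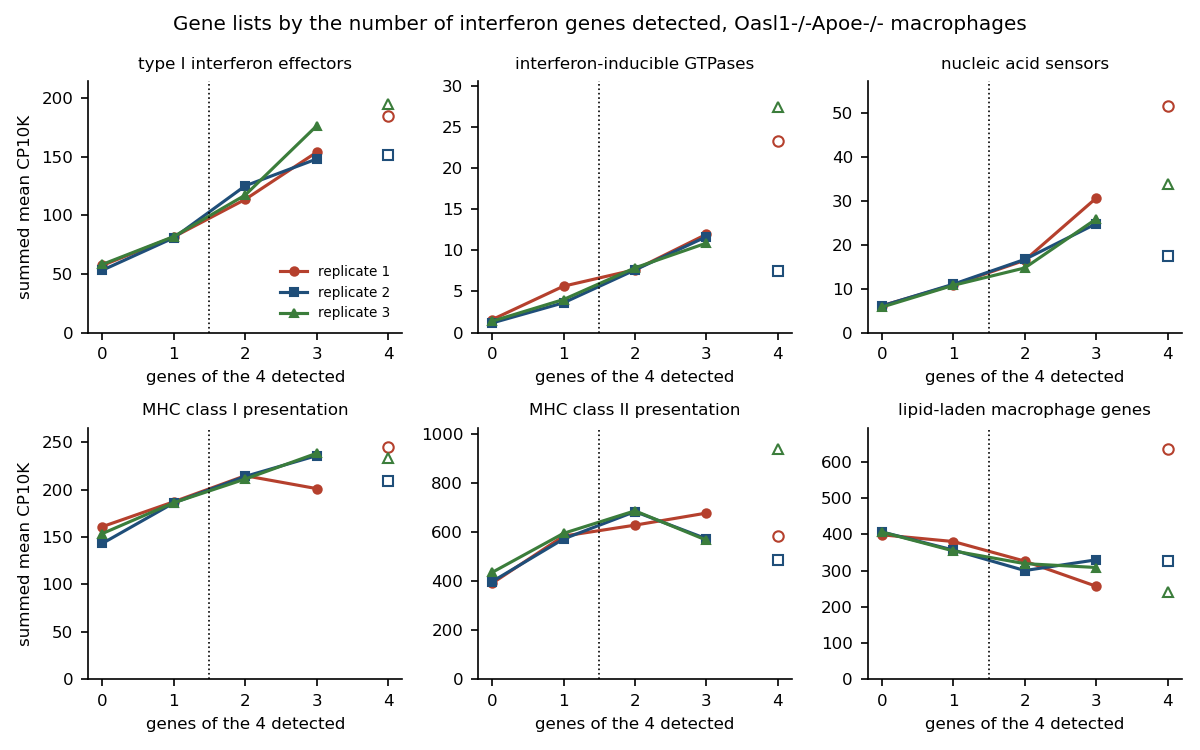
Summed level in CP10K of gene lists against the number of condition genes with a UMI, from 0 to 4, with 1 line per library labelled Oasl1-/-Apoe-/- and each cell thinned to 2000 UMIs after it was classed. The dotted line is the threshold between 1 and 2 genes, open points are the few cells with 4 genes, and the effector sum rises at each step up to 3.

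Interferon-high macrophages were next set against the other macrophages of the same 3 libraries, with the library as the replicate. Of 8068 genes tested outside the condition, 312 (3.87%) were higher and 167 (2.07%) lower, together 479 (5.94%), by limma with Benjamini-Hochberg adjustment at 0.05, and the median log2 difference of all genes was -0.03. On the scale of the mean deposited log values the split was 463 higher and 102 lower. Because the condition selects cells by transcripts of the same response, genes that vary with it had to differ. With each cell's UMIs divided at random into 2 equal parts, the condition applied to the first part and the values taken from the second, 194 were higher and 116 lower, and 189 of the 312 higher calls (60.6%) and 70 of the 167 lower calls (41.9%) were made again. In the unused part Rsad2, itself a condition gene, was at 6.42, 9.01 and 5.97 CP10K in the cells that the first part chose. It was at 0.374, 0.438 and 0.356 in the others. Both parts come from the same cells, so this difference follows from the choice and is only a description. Fewer calls were made without replicate 3 (275), without the cells holding UMIs of other cell types (236) and after thinning to 2000 UMIs (227). Log2 differences below are on log2(CP10K + 0.05), which understates the change of low genes. The count of each list in this comparison is to be read beside 3.87% higher and 2.07% lower among all genes. Where values of the classes are said not to overlap, this only describes the named genes. The share of all genes without overlap was not counted. The 17 gene lists hold 331 genes, of which 310 were in the table, and the others were not analysed here.

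Of the interferon ligands, Ifnb1, which encodes interferon beta, was found among macrophages mostly in the interferon-high cells (chr4:88522025-88522774, minus strand). It had 29, 5 and 24 UMIs in 7, 4 and 6 of these cells in the libraries labelled Oasl1-/-Apoe-/-, or 17 of 258 cells (6.59%, Wilson 95% interval 4.15 to 10.3). Among the other macrophages it had 3 UMIs in 2 of 1526 cells (0.131%, 0.0360 to 0.477), and among all cells that were not macrophages 27 UMIs in 6 of 7971. Mean levels were 0.743, 0.0875 and 0.428 CP10K against 0.00329, 0 and 0.00801, with no overlap, and 1 cell of replicate 3 held 14 of the 58 UMIs (24.1%). The gene passed the filter on low values only through the interferon-high cells, so no test is given for it. It is still counted among the higher calls above, and other genes near the filter can have entered in the same way. In the Apoe-/- libraries 4 of 28 interferon-high macrophages had Ifnb1, all in replicate 1, and in replicate 2 the gene was listed at 0 in every cell. By condition genes, Ifnb1 was found in 0 of 1131 cells with none, 2 of 395 with 1, 3 of 168 with 2 (all in replicate 3), 11 of 79 with 3 (6, 3 and 2 by library) and 3 of 11 with 4 (1 in each library). Ifng, for interferon gamma, was found in 0 of 258 interferon-high macrophages, which allows a share of cells with a UMI of up to 1.16%, and in 0 of 1526 other macrophages. It had 342 UMIs in 144 of the 7971 cells of these libraries that were not macrophages (1.81%), and 72 UMIs in 36 of 7779 such cells of the Apoe-/- libraries (0.463%).

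Of 22 genes of interferon reception and signalling tested, 8 were higher and 2 lower, with a median log2 difference of 0.27. Irf7, the factor that amplifies type I interferon production, was at 3.02, 2.83 and 3.29 CP10K against 0.722, 0.808 and 0.736 (log2 difference 1.94 ± 0.11 SE, limma adjusted p = 1.4e-08). All 3 libraries of interferon-high macrophages lay above all 3 of the others. Irf8, a lineage factor that interferon gamma also induces, was higher by a log2 difference of 0.78 ± 0.10, Irf1 by 1.0 ± 0.14, and the cytokine gene Il15 by 1.24 ± 0.20. The receptor genes did not rise with them: Ifnar1 differed by -0.41 (adjusted p = 0.22 by limma), Ifnar2 by -0.18, and Ifngr1 was lower by a log2 difference of -0.54 ± 0.11. Irf9 differed by 0.14 (adjusted p = 0.75). The calls of Stat2 (1.03 ± 0.22), Socs1 (0.92), Jak1 (-0.63) and Ifngr1 were lost after thinning to 2000 UMIs.

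Antiviral effectors formed the largest block: 43 of 46 tested were higher and none lower, against 3.87% of all genes, with a median log2 difference of 1.25, and 37 of 46 were higher in the UMIs that the condition did not use. Isg15 was at 10.45, 11.6 and 9.91 CP10K against 1.85, 1.85 and 1.78 (2.51 ± 0.07 SE, limma adjusted p = 5.1e-12). Ifit2, of the same family of RNA-binding proteins as Ifit1, was at 2.21, 1.71 and 1.545 CP10K against 0.114, 0.0904 and 0.0856 (3.66 ± 0.16, adjusted p = 8.2e-10), the largest difference among the genes that passed. The values of both classes were far apart in every library. Ifit3 (3.32 ± 0.12), the mitochondrial nucleotide kinase gene Cmpk2 (3.07 ± 0.21), which neighbours Rsad2, and Usp18, which removes ISG15 and restrains IFNAR2 (2.55 ± 0.14), followed, with Mx1 at 2.44 ± 0.21. Oasl1 was higher by 1.75 ± 0.14. Ifit3 and Ifit3b (2.85 ± 0.21) are close copies, and how reads were divided between them is uncertain. Abundant members differed less: the membrane protein gene Ifitm3 was at 20.9, 23.2 and 21.9 CP10K against 12.1, 11.8 and 12.5 (0.86 ± 0.05), and Ifi27l2a at 15.2, 18.5 and 15.8 against 12.98, 13.1 and 14.3 (0.29 ± 0.06). Trim30d, Adar and Pnpt1 did not pass the test, with log2 differences of 0.84, 0.72 and 0.78. After thinning, Slfn8 (1.20) stood at -0.10, and the calls of Oas1a, Oas1g, Oas2, Eif2ak2, Slfn1 and others with few UMIs were lost. Serpina3g, a serpin gene on no list, had a UMI in 80 of 258 interferon-high macrophages (31.0%) and in 83 of 1526 others (5.44%). Its level was higher by 2.68 ± 0.14.

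The interferon-inducible GTPases, which attack the vacuoles of intracellular microbes, were higher for 9 of 12 tested and lower for none, with a median log2 difference of 1.47. Gbp2 was at 2.88, 2.94 and 2.83 CP10K against 0.863, 0.521 and 0.475 (2.17 ± 0.14 SE, limma adjusted p = 5.5e-08). Ifi47 (2.27 ± 0.15), Iigp1 (2.20 ± 0.19) and Igtp (2.10 ± 0.15) were close to it, and Gbp8 differed by 0.08 (adjusted p = 0.92). Sensors of foreign nucleic acid were higher for 13 of 19. Zbp1, which senses Z-form nucleic acid, was at 2.83, 3.53 and 3.398 CP10K against 1.27, 1.18 and 1.02 (1.45 ± 0.11). Ifih1, for the long RNA sensor MDA5, was at 1.45, 0.903 and 0.828 CP10K against 0.238, 0.181 and 0.278 (1.95 ± 0.19), and Ifi204, for a DNA-binding protein, at 4.57, 2.996 and 3.71 against 1.30, 1.22 and 1.18 (1.55 ± 0.11). Neither gene overlapped between the classes. Among those that did not pass were the adaptor gene Mavs (-0.25), Tlr7 (0.31), Aim2 (0.44) and Mb21d1, for the DNA sensor cGAS (0.38).

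**Figure D3:**
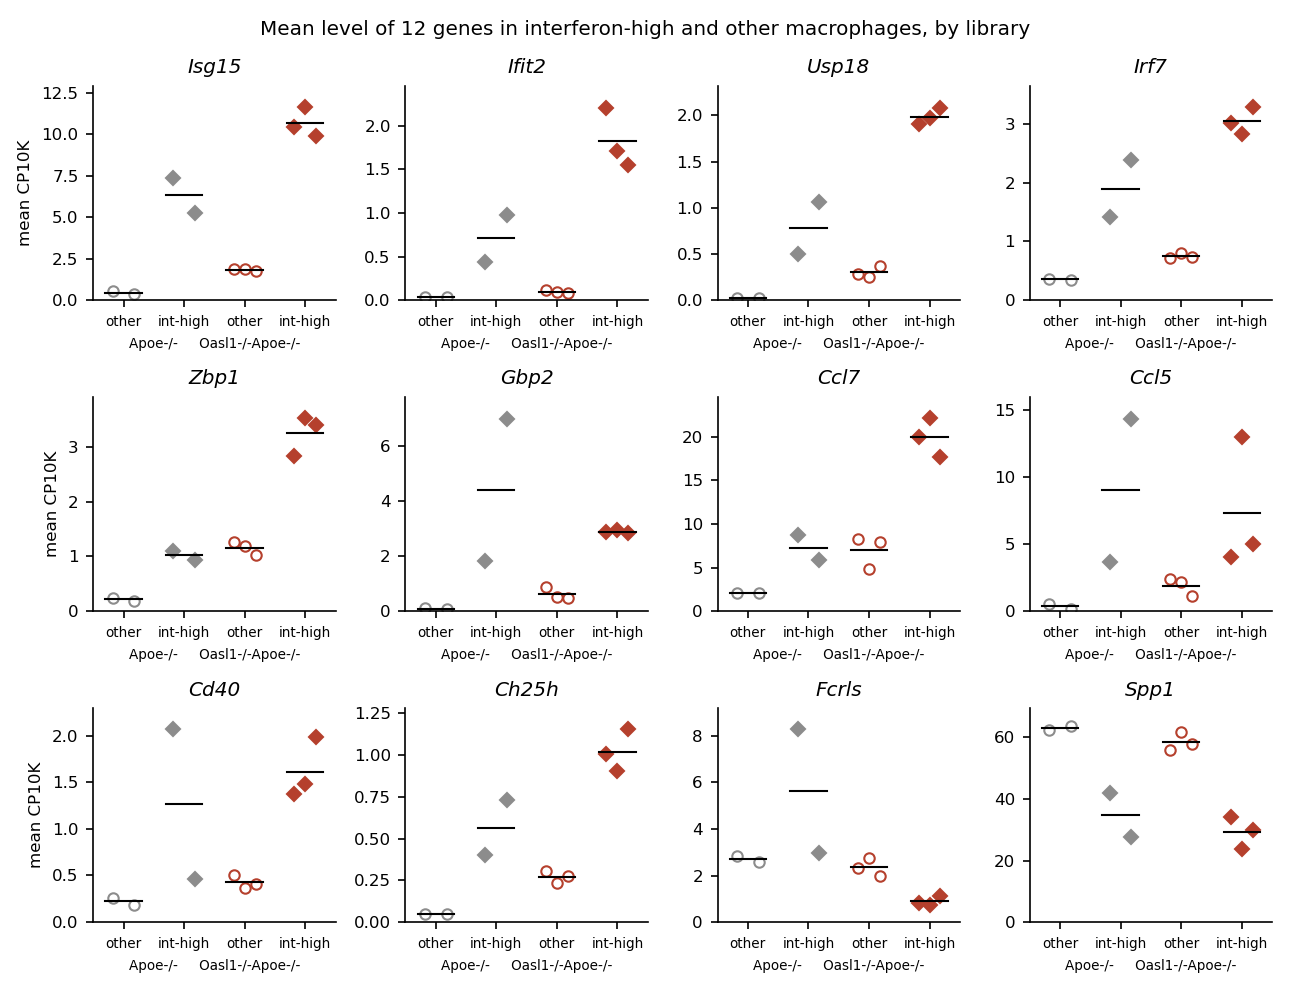
Mean level in CP10K of 12 genes by library, with the other macrophages beside the interferon-high macrophages and both groups of libraries shown. Each point is a library and the line is the group mean. In the libraries labelled Oasl1-/-Apoe-/-, Isg15, Ifit2, Usp18, Irf7, Zbp1, Gbp2, Ccl7, Ccl5, Cd40 and Ch25h lie higher in the interferon-high cells and Fcrls and Spp1 lower.

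Chemokine genes divided. Of 15 tested, 6 were higher (Ccl2, Ccl3, Ccl4, Ccl5, Ccl7 and Ccl8, all CC ligands) and 3 were lower (Cxcl3, Cxcl13 and Pf4), with a median log2 difference of 0.10. The monocyte attractants Ccl2 and Ccl7 were at 18.9, 11.9 and 12.1 and at 19.99, 22.2 and 17.7 CP10K, against 6.42, 5.08 and 5.68 and 8.33, 4.86 and 7.95 (1.29 ± 0.08 and 1.53 ± 0.13 SE). Ccl4, an attractant of monocytes and T cells, was the most abundant at 62.4, 53.2 and 56.1 CP10K against 20.8, 15.8 and 19.0 (1.63 ± 0.04, limma adjusted p = 3.2e-12). None of these 3 genes overlapped between the classes. Ccl8 was higher by 1.23 ± 0.06 and Ccl3 by 0.84 ± 0.07. Ccl5 was at 4.02, 12.99 and 5.03 CP10K against 2.40, 2.17 and 1.12, and in replicate 2 a single cell held 345 of its 755 UMIs (45.7%). It had a UMI in 101 of 258 interferon-high macrophages (39.1%) and in 193 of 1526 others (12.6%). The neutrophil attractant Cxcl2 differed by 0.11 (adjusted p = 0.45) and Cxcl16 by 0.10 (0.41). The lower calls of Cxcl13 (-2.15) and Cxcl3 (-1.69) rested on 3 and 6 UMIs in the interferon-high cells. Both genes met the filter on low values mainly through the other macrophages, where they are higher, and these calls are given no weight. Of 6 chemokine receptor genes 1 was higher, Ccrl2 (0.45 ± 0.08), which was lost after thinning.

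Among 19 Fc and phagocytic receptor genes 3 were higher and 4 lower. Fcgr1, the high-affinity IgG receptor gene, was at 5.36, 3.97 and 5.35 CP10K against 2.75, 2.76 and 2.75 (0.81 ± 0.09 SE, limma adjusted p = 2.7e-05). Trem2, the lipid receptor gene of foam cells, was at 9.08, 9.16 and 8.81 CP10K against 12.7, 13.04 and 12.4 (-0.49 ± 0.05, adjusted p = 1.9e-05), a call lost without the cells holding UMIs of other cell types. The inhibitory receptor gene Fcgr2b (-0.52), Axl (0.40) and Cd300lf (0.67) lost their calls under several alternatives, and Cd300lf stood at -0.07 after thinning.

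Genes of both antigen presentation pathways were higher. Of 20 MHC class I pathway genes 17 were higher and none lower, with a median log2 difference of 0.66. The differences were small for abundant genes, as for B2m at 108, 115 and 115 CP10K against 95.1, 84.6 and 87.3 (0.34 ± 0.04 SE, limma adjusted p = 4.3e-05) and H2-K1 (0.49), and larger for the peptide transporter gene Tap1 (1.23 ± 0.14) and the immunoproteasome gene Psmb9 (0.93). Of 11 MHC class II pathway genes 6 were higher. Cd74, the invariant chain gene, was at 286, 294 and 318 CP10K against 221, 212 and 227 (0.44 ± 0.03, adjusted p = 1.7e-08), and H2-Aa at 94.2, 92.5 and 96.3 against 67.7, 68.0 and 71.7 (0.45 ± 0.03). The classes did not overlap for either gene, and Ciita, for the master regulator of class II, differed by 0.31 (adjusted p = 0.58).

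Inflammatory genes moved in both directions. Of 24 tested, 12 were higher and 2 lower, with a median log2 difference of 0.55. The 12 include Il27, which had 26 UMIs in 258 interferon-high macrophages and 24 in 1526 others. Its call leans on the interferon-high cells for the filter on low values and is given no weight. Il1b was lower, at 4.84, 7.05 and 5.19 CP10K against 8.91, 11.7 and 9.79 (-0.84 ± 0.06 SE, limma adjusted p = 3.2e-07). Tnf was higher, at 6.25, 5.63 and 4.63 CP10K against 2.24, 2.49 and 2.21 (1.22 ± 0.09, adjusted p = 2e-07). The classes did not overlap in either gene. Cd40, a costimulatory receptor gene, was at 1.37, 1.48 and 1.99 CP10K against 0.506, 0.361 and 0.409 (1.80 ± 0.16). Ch25h, for the enzyme that makes 25-hydroxycholesterol, was at 1.004, 0.902 and 1.15 CP10K against 0.303, 0.234 and 0.274 (1.74 ± 0.16), and had a UMI in 81 of 258 cells (31.4%) against 151 of 1526 (9.90%). Acod1, the itaconate-producing enzyme gene, was seen in 48 of 258 cells (18.6%) and was higher by 2.29 ± 0.23. The antagonist genes Il1rn (0.61) and Il18bp (0.80 ± 0.10, lost in the UMIs that the condition did not use) were higher too. Il10 (0.65, adjusted p = 0.06) and Cd86 (0.30, adjusted p = 0.13) did not pass the test, and Nlrp3 differed by -0.01.

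Genes of lipid-laden macrophages were lower. Of 24 tested, 16 were lower, against 2.07% of all genes, and 1 was higher (Npc2, 0.27), with a median log2 difference of -0.39. In the UMIs that the condition did not use 16 were lower, and 9 were without the cells holding UMIs of other cell types. Spp1, for osteopontin, was at 34.2, 23.7 and 29.9 CP10K against 55.9, 61.7 and 57.8 (-1.01 ± 0.08 SE, limma adjusted p = 4.8e-07). The proton pump subunit gene Atp6v0d2 was at 0.295, 0.268 and 0.279 CP10K against 0.758, 0.818 and 1.05 (-1.47 ± 0.17). Both genes were lower in all 3 libraries with no overlap, as was the tetraspanin gene Cd9 (-1.02 ± 0.11). The list contains Gpnmb, which was at 5.62, 6.23 and 7.32 CP10K against 7.86, 7.36 and 8.32 and whose call was lost under several alternatives. Of the 13 tested tissue-resident genes 4 were lower and none higher. Fcrls was at 0.835, 0.720 and 1.10 CP10K against 2.31, 2.76 and 1.98 (-1.36 ± 0.15), and the others were Pf4 (-0.80), Selenop (-0.47) and Igf1 (-0.60).

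Of 15 monocyte genes 3 were higher and 4 lower. Ly6a, for the interferon-inducible surface protein Sca-1, was at 14.5, 13.4 and 12.9 CP10K against 5.05, 4.55 and 4.89 (1.48 ± 0.06 SE, limma adjusted p = 3.9e-10), and Lyz2, for lysozyme, was at 66.9, 78.3 and 58.5 against 108, 107 and 108 (-0.68 ± 0.06). Ly6c2, the marker of classical monocytes, differed by -0.24 (adjusted p = 0.8). Of 16 immediate early genes, which respond to stimulation and to tissue dissociation alike, 7 were higher and none lower, with small differences such as Zfp36 (0.43), Atf3 (0.42) and Dusp1 (0.29), all lost with at least 3 of the 4 condition genes required. Of 13 complement genes C3 alone was higher (1.87 ± 0.18, lost in the UMIs that the condition did not use), and of 12 cell death genes Daxx alone (1.45 ± 0.16).

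Because lipid-laden cells make up part of the other macrophages, the interferon-high macrophages were also set against the 600 other macrophages with a UMI of Gpnmb, a foam cell gene, and against the 926 without. A share of 35.4%, 41.1% and 37.7% of the interferon-high cells had Gpnmb, beside 41.1%, 37.1% and 39.6% of the other macrophages. Against the Gpnmb-positive cells 573 of 7996 genes (7.17%) were higher and 344 (4.3%) lower, together 917 (11.5%), or 615 and 573 on the scale of the mean log values. Against the Gpnmb-negative cells 278 of 8104 (3.43%) were higher and 179 (2.21%) lower, together 457 (5.64%), or 665 and 75 on that scale, and 248 in all without replicate 3. Antiviral effectors were higher for 43 of 46 against the first and 40 of 46 against the second, with median log2 differences of 1.43 and 1.15, and GTPases for 10 and 9 of 12. Both comparators share the same interferon-high cells, so these counts are not independent. Genes of foam cells took opposite sides, in comparators that were themselves chosen by a gene of that list: 18 of 23 lipid-laden genes were lower against the Gpnmb-positive cells, and 10 of 22 were higher against the Gpnmb-negative ones. Il1b was higher against the first (0.70 ± 0.10 SE, limma adjusted p = 0.00015) and lower against the second (-1.34 ± 0.07, adjusted p = 2.3e-10). The interferon-high cells mix both Gpnmb states, while each comparator holds a single state. The sign and size of such differences can follow from this mix alone. MHC class II genes were higher for 7 of 11 in each, Cd74 by 1.08 and by 0.15. Cd9 was lower in both (-1.10 and -0.95), as was Fcrls (-1.18 and -1.47). The largest lower differences were Mfge8, Atp6v0d2 (-2.65), Ctsk, Cd5l (-2.34), Fabp4 (-2.04) and Spp1 (-1.98) in the first comparison, and Cxcl13, Tmem119 (-1.91), Cxcl3, Dcstamp (-1.90), Areg (-1.89) and Timp1 (-1.89) in the second. Cxcl13 and Cxcl3 carry the limit given above, and other low genes named here can share it.

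Cells were next matched on whether they had a UMI of Gpnmb. The level of Gpnmb among the positive cells was not matched. Interferon-high cells with Gpnmb (28, 30 and 40 cells) had effector sums of 111, 122 and 111 CP10K against 53.5, 51.3 and 53.1 in the other Gpnmb-positive macrophages, and those without Gpnmb (51, 43 and 66 cells) had 139, 143 and 146 against 74.4, 73.9 and 73.4. MHC class II sums were 477, 495 and 460 CP10K against 371, 369 and 351 with Gpnmb and 704, 716 and 802 against 556, 517 and 585 without. The lipid-laden sum, Gpnmb included, was 528, 513 and 537 CP10K against 617, 624 and 638 with Gpnmb and 197, 176 and 173 against 231, 256 and 224 without. Each of these pairs was separated in all 3 libraries within each Gpnmb state. Without Gpnmb, Il1b was at 5.63, 9.41 and 6.89 CP10K against 12.6, 16.4 and 14.2, with no overlap. With Gpnmb it was at 3.39, 3.67 and 2.38 against 3.59, 3.70 and 3.02, below the other cells of the same library in each case but with values that overlap across libraries, and the difference between the states was not tested. These matched values were examined after the comparisons above and carry no test. Median depth was 9466.5, 9187 and 8433 UMIs in the interferon-high cells with Gpnmb against 7248, 7697.5 and 8154, and 5051, 5496 and 5780.5 without it against 4478, 4529 and 4712.

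**Figure D4:**
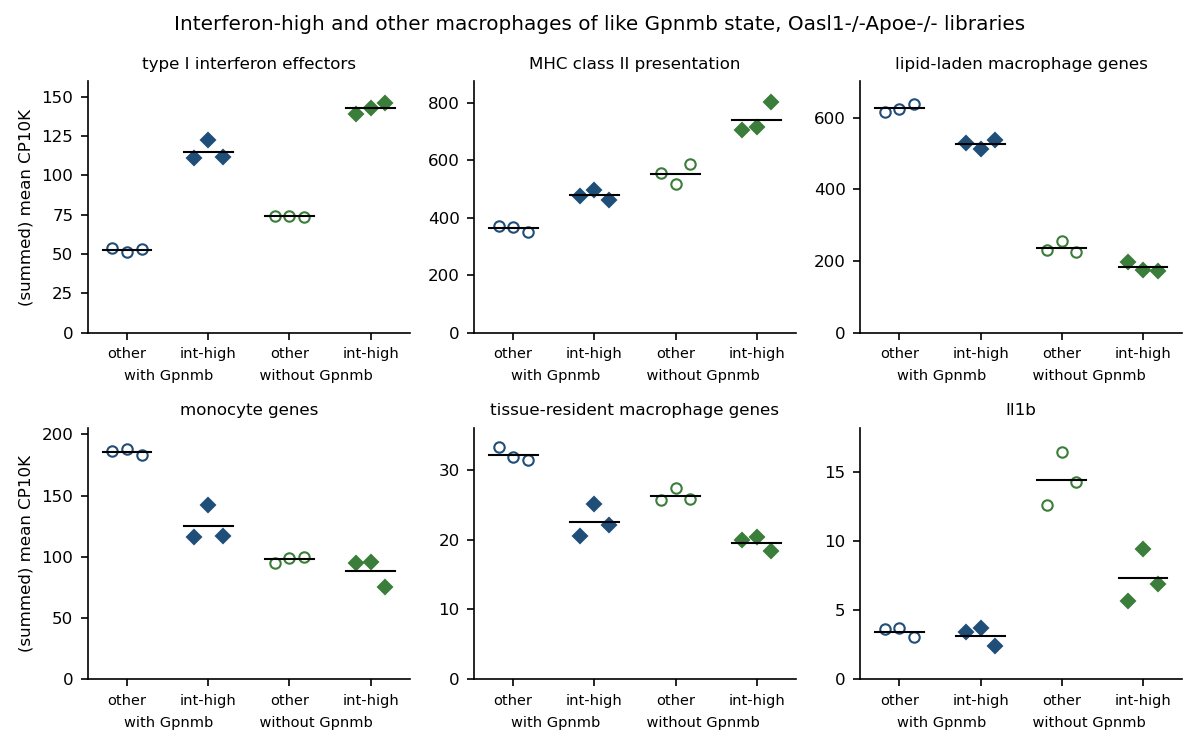
Summed list levels and Il1b in CP10K for interferon-high and other macrophages, split by whether a cell had a UMI of Gpnmb, in the 3 libraries labelled Oasl1-/-Apoe-/-. Points are libraries and lines are means. The effector and MHC class II sums are higher and the lipid-laden sum lower in the interferon-high cells of both states, and the Il1b values of the classes overlap across libraries with Gpnmb and not without it.

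The interferon-high macrophages were also divided by Cxcl9, itself a condition gene. Those with Cxcl9 (22, 23 and 35 cells) and those without (57, 50 and 71) were described side by side, a split chosen after values were seen and given with no test. Cells with Cxcl9 needed only 1 of the other 3 condition genes, and cells without it needed 2. This choice alone can give lower antiviral values with Cxcl9, and any difference beyond it was not tested. Their GTPase sums were 18.5, 13.6 and 12.5 CP10K against 6.89, 7.13 and 7.21 without Cxcl9, and their MHC class II sums were 883, 842 and 1002 against 523, 526 and 511. Cd74 was at 423, 395 and 488 CP10K against 234, 248 and 234, and Irf1 at 1.94, 2.003 and 2.38 against 0.996, 0.764 and 0.745. All of these were higher with Cxcl9 in each library, as was Ccl8, at 39.5, 31.4 and 19.5 against 7.13, 7.11 and 7.21. The effector sum went the other way, at 99.9, 110 and 106 CP10K with Cxcl9 against 140, 146 and 146 without. So did Irf7, at 1.90, 1.98 and 2.001 against 3.45, 3.23 and 3.93, and Isg15, at 5.92, 8.47 and 7.80 against 12.2, 13.1 and 11.0. Il1b was also lower with Cxcl9, at 2.97, 2.07 and 1.70 against 5.56, 9.34 and 6.91. Both kinds of cell had effector sums above the 65.8, 65.5 and 65.4 CP10K of the other macrophages. Median depth was 6247.5, 7936 and 6360 UMIs with Cxcl9 and 6143, 6658 and 6595 without.

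**Figure D5:**
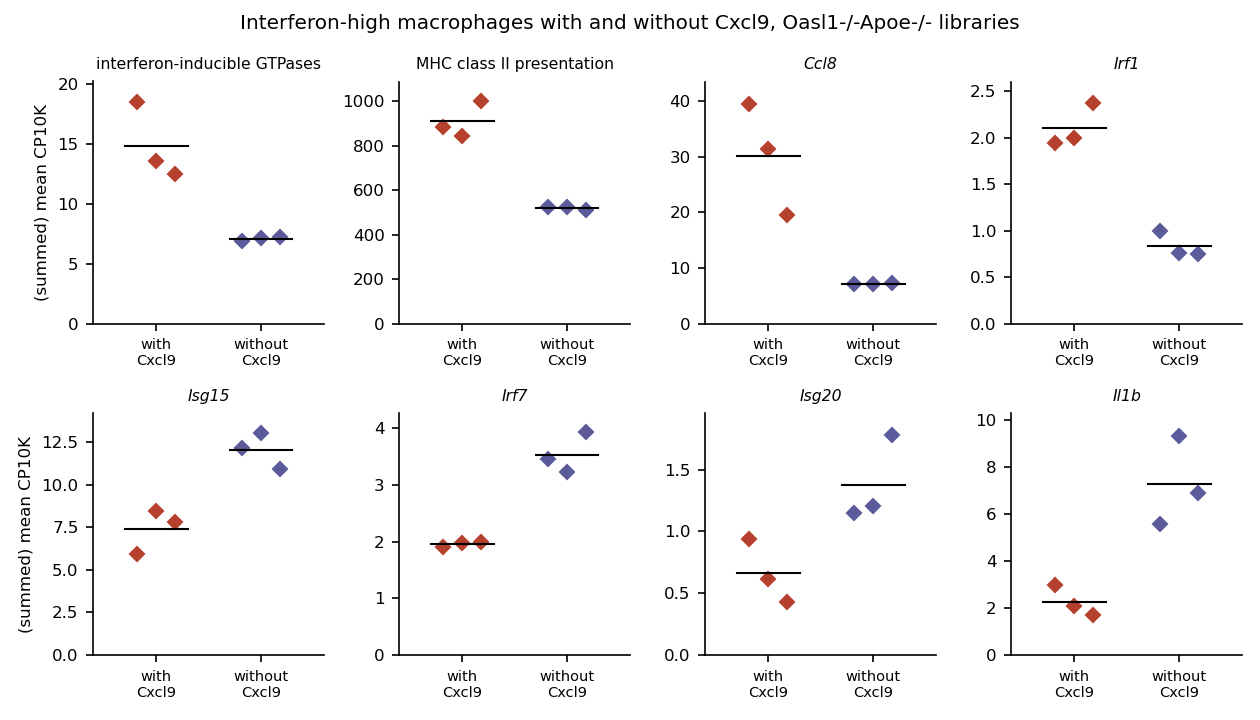
Levels in CP10K of 2 summed gene lists and 6 genes in interferon-high macrophages with and without a UMI of Cxcl9, by library labelled Oasl1-/-Apoe-/-. Points are libraries and lines are means. GTPases, MHC class II genes, Ccl8 and Irf1 lie higher with Cxcl9, and Isg15, Irf7, Isg20 and Il1b lower.

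The 17 interferon-high macrophages with Ifnb1 are set beside the 241 without, again as a description chosen after values were seen. The means pool the cells of all libraries labelled Oasl1-/-Apoe-/-, with 7, 4 and 6 Ifnb1 cells in replicates 1, 2 and 3. Cells are not replicates, and the spread between libraries is not shown here. Ccl4 averaged 234.6 CP10K in them against 44.7, Ccl3 53.7 against 10.2 and Tnf 13.4 against 4.84. Rsad2 was at 11.6 against 4.88 and Ifit1 at 14.2 against 1.85, and Isg15 at 15.6 against 10.2. Rsad2 and Ifit1 are condition genes, and 11 of the 17 cells had 3 condition genes and 3 had 4. The levels of these genes are thus tied to the choice of cells. Gpnmb was at 0.825 against 6.89, Irf7 at 1.22 against 3.21 and Il10 at 0.192 against 1.13. Their median depth was 5498 UMIs against 6613.

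In the Apoe-/- libraries only 14 cells each were interferon-high, too few for a fit, and their values are given side by side. Effector sums were 57.0 and 77.2 CP10K in them against 21.3 and 19.5 in the other macrophages, GTPase sums 4.64 and 10.9 against 0.55 and 0.44, and chemokine sums 247 and 268 against 89.3 and 79.6. In both libraries the interferon-high cells were above the others in all 3 sums. Isg15 was at 7.39 and 5.25 CP10K against 0.535 and 0.378, and Ccl4 at 93.0 and 89.7 against 11.5 and 12.5. The effector sum of the interferon-high cells of the Apoe-/- libraries overlapped that of the other macrophages of the libraries labelled Oasl1-/-Apoe-/- (65.8, 65.5 and 65.4). Ly6a marked the difference between groups of libraries more than that between classes, at 1.01 and 0.0918 CP10K in the interferon-high cells and 0.110 and 0.119 in the others. Among other macrophages, the libraries labelled Oasl1-/-Apoe-/- had 478 of 8029 genes (5.95%) higher and 382 (4.76%) lower than the Apoe-/- libraries, together 860 (10.7%) by limma, and 485 in all without replicate 3. In the same comparison 16 of 24 lipid-laden genes were lower and none was higher, and Gpnmb-positive cells made up 41.1%, 37.1% and 39.6% of these macrophages against 64.3% and 64.5% in the Apoe-/- libraries. The part of this in the 860 calls was not tested. Of the antiviral effectors, 34 of 43 were higher, Isg15 by a log2 difference of 1.91.

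The condition on the 4 genes was also met outside the macrophages. In the libraries labelled Oasl1-/-Apoe-/-, it held for 258 of 1784 non-cycling macrophages (14.5%, median 5756.5 UMIs), 9 of 97 monocytes, 24 of 291 fibroblasts (median 7274 UMIs), 33 of 514 endothelial cells (median 4247.5 UMIs) and 2 of 35 dendritic cells, each type taken by fixed markers. These shares varied widely between replicates 1, 2 and 3, at 11.1%, 15.6% and 0% of monocytes, 3.81%, 8.51% and 13.04% of fibroblasts and 2.76%, 10.6% and 5.88% of endothelial cells, and both dendritic cells were in replicate 3. It held for 9 of 307 T cells (2.93%, median 1986 UMIs) and for 49 of 4722 smooth muscle cells (1.04%, interval 0.786 to 1.37, median 5168.5 UMIs). Among all these smooth muscle cells, Ifit1 had a UMI in 5.10%, Cxcl10 in 4.15%, Rsad2 in 0.932% and Cxcl9 in 0.191%. How much of any share came from free RNA was not tested. In the Apoe-/- libraries the condition held for 28 of 621 macrophages (4.51%), 1 of 534 endothelial cells (0.187%), 0 of 96 fibroblasts and 4 of 5779 smooth muscle cells (0.0692%).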

How the data were processed

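Single cells of mouse aortic arch were profiled in 5 libraries. By title 2 were Oasl1/Apoe WT, called Apoe-/- after the paper, and 3 were Oasl1/Apoe DKO, called Oasl1-/-Apoe-/-. The authors mapped reads to mm10 with Cell Ranger 3.1.0, kept cells with Seurat 4.0.3 by gene number and mitochondrial share and used DoubletFinder against doublets, for which nothing further was run. The values, as deposited, are on a natural log scale, ln(1 + CP10K), with CP10K the UMIs of a gene for every 10000 in its cell. Undoing the log and dividing by the smallest value of a cell gave whole UMIs for 100% of values within a tolerance of 0.01. Genes seen in very few cells of a library appear to have been set to 0 before deposit, so such genes are said to be listed at 0. Of the gene symbols, 16324 (98.9%) matched GENCODE M21 on GRCm38.

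The mean CP10K per class and library was tested as log2(mean + 0.05) with limma 3.58.1 (lmFit, eBayes with trend, R 4.3.3), for genes with a mean of at least 0.05 CP10K, with Benjamini-Hochberg adjustment and a threshold of 0.05. The 13 genes of the conditions, Ccl12 and Fcgr4 were left out of the tests, and Gpnmb too where it chose the comparator. The 3 comparisons of interferon-high cells had the library as a block, since both classes come from the same suspension; same-library correlations of deviations were 0.001, 0.038 and 0.010. The comparison of other macrophages between groups had no block. Shares have Wilson 95% intervals, and limits at 0 are 3 counts; both cover counting error only. Other tools were Python 3.11.15, numpy 2.4.6, scipy 1.17.1, pandas 2.3.3 and matplotlib 3.10.9. The fit was tested on simulated data.

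The members, the lists and the markers were chosen with earlier results of these data known. The text names condition and marker genes, members of the lists, and the 10 genes with the largest difference in each direction that passed the test with 1 sign in all 3 libraries. Splits by Cxcl9, by Ifnb1 and by Gpnmb among interferon-high cells, and Serpina3g, were chosen or singled out after values were seen. The alternatives were another offset, filter, scale, tool, interferon or C1q threshold, thinning, values from UMIs that the condition did not use, cells with UMIs of other cell types left out, cycling cells kept, the block, and each library left out. Cell annotation made by the study was not used. Results for a few genes of the lists are not reported here.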

Additional observations from a re-analysis of the deposited data

Results flagged for a closer look

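In 10 of the 172 named genes past the threshold, both Apoe-/- libraries moved in the opposite direction from all 3 libraries labelled Oasl1-/-Apoe-/-. The values are log2 differences of interferon-high from other macrophages, the mean of 2 Apoe-/- libraries beside the mean of the 3 others, and the difference between the groups was not tested. Fcrls was at 0.87 in the Apoe-/- libraries (69 UMIs in their interferon-high cells) and at -1.36 in the others, Cd14 at 0.46 (225 UMIs) and -0.43, Fn1 at 0.68 (39 UMIs) and -0.61, Igf1 at 0.14 (109 UMIs) and -0.60, and Ier2 at -0.64 (19 UMIs) and 0.35. Areg was at 0.66 on 2 UMIs, against -1.51. The antiviral genes Ddx58, Herc6, Oas1g and Stat2 had 0 UMIs in the 28 interferon-high cells of the Apoe-/- libraries, so that their values depend on the offset: Ddx58 was at -1.01 against 1.32, Herc6 at -1.63 against 1.72, Oas1g at -0.80 against 0.73 and Stat2 at -0.68 against 1.03.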

How the results depend on the processing

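Of 4344 comparisons of 291 named genes with their reported values over the alternatives, 3968 kept direction and side of the threshold, 297 lost the call, 76 gained one and 3 changed sign: Timp1 (-1.43) stood at 0.225 with C1q above 3, and Cd300lf and Slfn8 at -0.074 and -0.096 after thinning to 2000 UMIs. Against the other macrophages (479 calls) there were 248 with no filter, 292 with at least 3 condition genes, 227 after thinning, 310 with values from UMIs that the condition did not use and 236 without cells holding UMIs of other cell types. Against the Gpnmb-positive cells (917) there were 518 with at least 3 genes, 423 after thinning, 595 with such values and 593 without such cells. Against the Gpnmb-negative cells (457) there were 740 on mean log values, 278 with at least 3 genes, 202 after thinning, 263 with such values and 220 without such cells. Between groups (860) there were 540 after thinning and 330 without such cells. The cause was not tested, except that several alternatives hold fewer cells (90 with at least 3 genes, 116 without such cells, against 258). Leaving out each library in turn gave 275 to 477, 783 to 852, 248 to 495 and 485 to 933 calls, in the same order, and 275, 248 and 485 were those without replicate 3 labelled Oasl1-/-Apoe-/-; without replicate 2 the comparison between groups had 544, and where 1 Apoe-/- library was left the fit assumed that it varies like the others. With no replicate block there were 403, 928 and 411 calls, and limma-voom gave 579 in the first comparison. Between groups, whose replicate numbers are names only (same-number correlations 0.053 and 0.027), a replicate block gave 872 calls. The mean share of interferon-high cells was 1.45% (Apoe-/-) and 5.06% with at least 3 genes, 2.97% and 6.59% after thinning, and 4.64% (Apoe-/-) with C1q above 3. Values of interferon-high cells in the Apoe-/- libraries rest on 28 cells.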
